A study of Mus musculus with 20 samples.

Results

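Microglia of 9-month-old APP-KI;C3aRKO mice were compared with those of APP-KI mice of the same age, to ask what losing the complement receptor C3aR does to microglial gene expression in a brain that carries amyloid plaques. The comparison holds 8 of the 20 libraries of the study, every one labelled with either genotype and not selected on C3aR. They are APP-KI;C3aRKO replicates 1 to 5 and APP-KI replicates 4 to 6, all on a C57BL/6 background. APP-KI mice carry the NL-G-F knockin, a humanized Aβ sequence with the Swedish, Iberian and Arctic mutations in the mouse App gene, so Aβ rises without an added transgene. APP-KI;C3aRKO mice carry the same knockin and a germline C3ar1 knockout, so every cell of the animal, peripheral myeloid cells included, lacked the gene. The knockout line had been backcrossed to C57BL/6J for 5 generations before the cross, and the study describes littermates. Brains were digested with papain and microglia were sorted as CD11b-positive cells with intermediate CD45. Further libraries, 3 C3aRKO and 3 WT without the knockin, served as a second look at C3ar1 loss. That look is not independent, since the knockout line and library series were the same and all 14 libraries were fitted together. Another 6 libraries, 3 of C3aR+ WT and 3 of C3aR+ APP-KI cells, served to choose gene lists. The study sorted C3aR+ cells by Td-tomato from WT and APP-KI mice that carried this reporter at the C3ar1 locus. All 20 libraries are labelled as 9 months. The labels do not say that each library came from a separate animal, so a p-value measures the spread between these libraries, which may be partly technical.

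C3aR is the G protein-coupled receptor for C3a, the small fragment released when complement component C3 is cleaved. In the brain the receptor is found mainly on microglia, and astrocytes are a known source of C3. Microglia near plaques move from a homeostatic state, marked by genes such as P2ry12 and Tmem119, to a plaque-associated state marked by Apoe, Trem2, Axl and Lpl. HIF-1α, encoded by Hif1a, is the transcription factor that raises glycolytic genes when oxygen is scarce.

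Each value is a gene's read count relative to the upper quartile of its library, multiplied by a single constant for all libraries. They are called scaled values here. They are not divided by gene length, so levels are compared only within a gene. Whole reads could be recovered from every value. The 3 APP-KI libraries held between 44418969 and 55722037 reads and the 5 APP-KI;C3aRKO libraries between 42239056 and 69658208.

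Several libraries stood apart, in both genotypes. All of them were of the first library series, read from the first digits of the library number. That series held 2 of the 3 APP-KI and 2 of the 5 APP-KI;C3aRKO libraries. In the second series, libraries of both genotypes had reads on 15814 to 16157 genes. APP-KI replicate 4 and APP-KI;C3aRKO replicate 1 had reads on 13249 and 12386 of the 21315 genes listed, against 15814 to 21210 in the other 6. These 2 libraries also lay far from the rest on the first principal components, which held 54.6% and 25.0% of the variance. Their summed level of 10 microglial marker genes was the lowest of each group (12579 and 10928, against up to 26316 and 28605). APP-KI replicate 5 had reads on 1099 of 1100 olfactory receptor genes, which microglia are not known to use, and APP-KI;C3aRKO replicate 2 on 429 of them, where the other 6 had reads on 145 to 177. The median scaled value of these genes was 0.98 in APP-KI replicate 5 and 0 elsewhere. Y-linked genes were at or near 0 in APP-KI replicate 4 and were read in the other 7 libraries. Results are therefore also given for 6 libraries, without the 2 that had reads on fewer than 14000 genes. That choice was made after the data were seen. Of the libraries without the knockin, C3aRKO replicates 1 and 2 also had reads on fewer than 14000 genes (12701 and 13055). C3aRKO replicate 3 had reads on 15946 genes, and WT replicates 4, 5 and 6 on 15547, 16296 and 16627. C3aRKO replicates 1 and 2 and WT replicate 4 were of the first series, the others of the second. The part these differences play in the results was not tested.

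**Figure D1:**
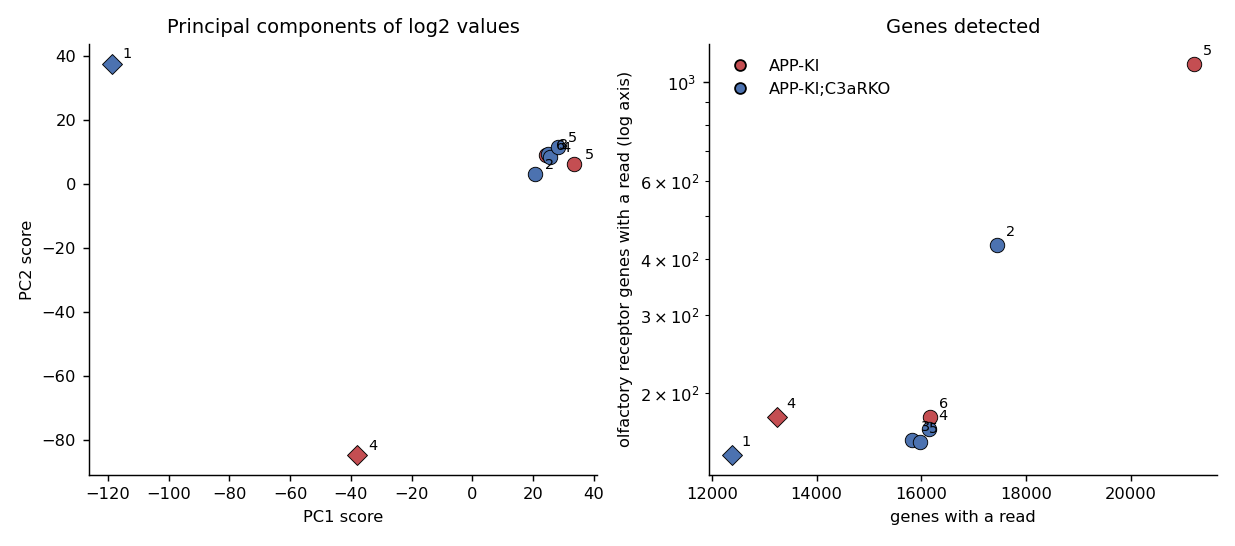
State of the 8 libraries, numbered by replicate (red, APP-KI, blue, APP-KI;C3aRKO; diamonds, the 2 libraries with the fewest genes detected). Left, scores on the first 2 principal components of log2 values, on which APP-KI replicate 4 and APP-KI;C3aRKO replicate 1 lie away from the other 6. Right, genes with a read against olfactory receptor genes with a read (log axis), on which APP-KI replicate 5 reaches 1099 of 1100.

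C3ar1, the deleted gene, was low in every APP-KI;C3aRKO library. It lies on chromosome 6 at 122847138 to 122856161 of GRCm38, on the minus strand. Its scaled values were 165, 315 and 388 in APP-KI replicates 4, 5 and 6. They were 80.4, 77.4, 69.4, 75.9 and 61.9 in APP-KI;C3aRKO replicates 1 to 5. The groups did not overlap, and the highest knockout library stood at 48.7% of the lowest APP-KI library. As means, 73.0 ± 7.40 (SD, n = 5) compared with 289 ± 114 (SD, n = 3), so 25.2% of the signal remained. Reads on the gene in a knockout can come from the part of the gene that was not removed, which these gene totals do not show. The log2 fold change was -1.93 (95% interval -2.52 to -1.34), and an exact permutation test over the 56 arrangements gave a two-sided p of 0.0357, the smallest it can give.

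Over all genes, C3ar1 in these 8 libraries did not pass the adjustment (adjusted p = 0.603 from limma). Removing APP-KI replicate 4 gave -2.25 with adjusted p = 0.0319 (limma), and the 6 libraries gave -2.29 (-2.57 to -2.01) with adjusted p = 0.00118 (limma). In a fit of all 14 libraries the value was -1.95 with adjusted p = 0.00972 (limma). Without the knockin C3ar1 fell in the same way, from 315 ± 34.6 in WT to 57.9 ± 15.6 in C3aRKO (SD, n = 3 each). The difference between the falls with and without the knockin was 0.44 on the log2 scale (95% interval -0.34 to 1.21, adjusted p = 0.998 from limma). In bulk samples fewer cells that express a gene and less RNA per cell cannot be told apart.

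**Figure D2:**
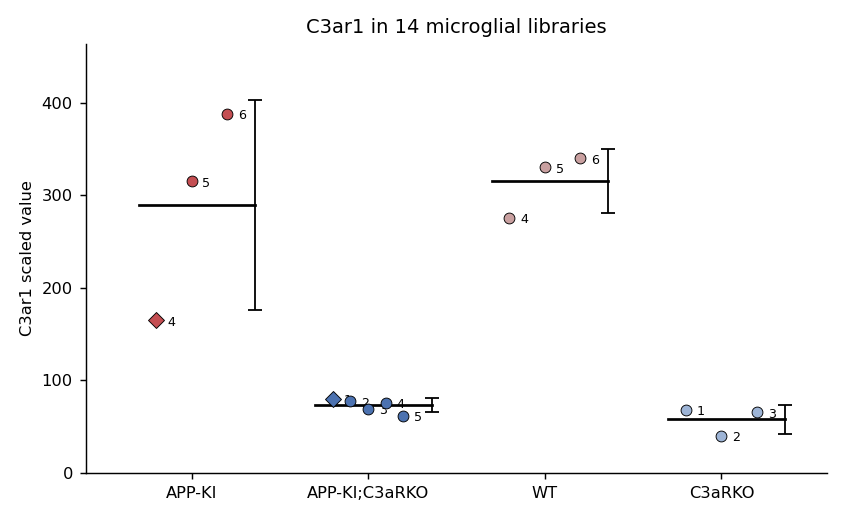
C3ar1 scaled value in each of 14 libraries, by genotype. Points are libraries with their replicate number, horizontal lines are means and bars are SD. Diamonds mark APP-KI replicate 4 and APP-KI;C3aRKO replicate 1, which had the fewest genes detected among the 8 libraries with the knockin. C3aRKO replicates 1 and 2, with reads on 12701 and 13055 genes, are not marked. The 5 APP-KI;C3aRKO libraries lie between 61.9 and 80.4, below all 3 APP-KI libraries.

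Across all genes tested, no difference other than that of C3ar1 passed limma's adjusted test in the fits of 8, 6 or 14 libraries. limma called 0 of 12663 genes higher and 0 lower at an adjusted p under 0.05 (0% in each direction). An unadjusted p under 0.05 was reached by 9 genes that were higher and 33 that were lower. edgeR on the recovered reads also called 0 in each direction, with 12 higher and 15 lower before adjustment (p under 0.05). The fit of 14 libraries called 0 higher and 1 lower (0.00806% of 12407), C3ar1 itself. The fit of 6 libraries likewise called 0 higher and 1 lower (0.00775% of 12895), again C3ar1, with 95 higher and 249 lower before adjustment.

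The precision of these fits differed. In the 8 libraries the 95% interval of the median gene reached 0.66 to either side on the log2 scale, and 56.8% of genes had an interval inside a doubling or halving. In the 6 libraries the median reach was 0.24 and the share 88.6%. These intervals are for single genes, before adjustment, and a change had to be larger to pass the adjusted test, which C3ar1 itself did not pass in the 8 libraries.

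DESeq2 on the recovered reads gave a different count, 0 genes higher and 159 lower (0.747% of 21276). Before adjustment 6 were higher and 807 lower. C3ar1 was among the 159, with adjusted p = 1.59e-08 (DESeq2). Of the 159 genes, 152 had a mean scaled value under 1 and 20 were olfactory receptor genes. APP-KI replicate 5 held the highest value for 155 of them, and for the median gene it held 100% of the signal summed over the 8 libraries. The genes called lower were thus mostly highest in the library that had reads on nearly every olfactory receptor gene. DESeq2 was not run without that library, so its part in the count was not tested.

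A count that uses no variance model is the number of genes whose libraries do not overlap between the genotypes. It was 75 higher (0.592%) and 132 lower (1.04%) in APP-KI;C3aRKO. Among the 75, APP-KI replicate 4 was the lowest library for 59, and among the 132 it was the highest for 85. By place on the genome these genes were unevenly spread, a pattern noticed after the values were seen. Of the 167 genes tested within 10 Mb of C3ar1, C3ar1 left out, 11 did not overlap (6.59%), against 195 of 12495 elsewhere (1.56%). In steps outward, 9.09% of 33 genes within 2 Mb did not overlap, 5.17% of 58 from 2 to 5 Mb, 6.58% of 76 from 5 to 10 Mb and 8.51% of 47 from 10 to 20 Mb. The share was 3.77% of 398 genes farther along chromosome 6 and 1.45% of 11897 on other chromosomes. In the 6 libraries the shares were 14.3% of 175 genes within 10 Mb and 7.30% of 12719 elsewhere. In C3aRKO against WT, where 9.16% of all genes were higher and 9.31% lower without overlap, they were 23.9% of 163 within 10 Mb and 18.4% elsewhere.

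**Figure D3:**
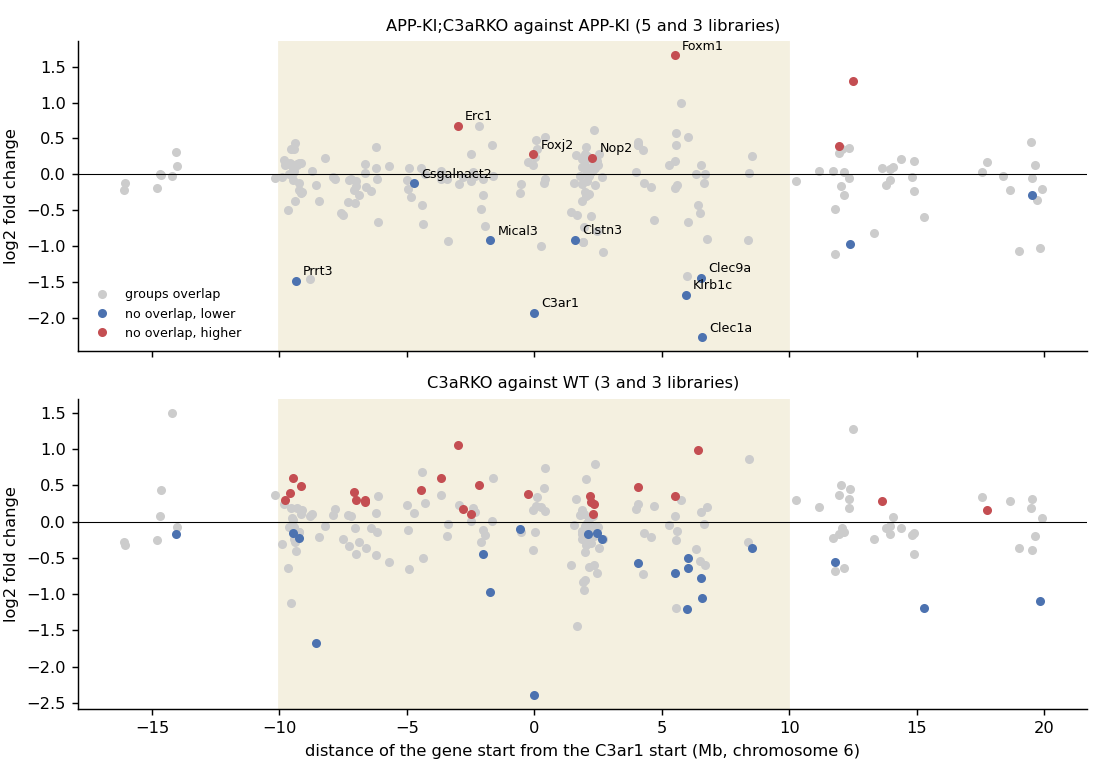
log2 fold change of genes within 20 Mb of C3ar1 on chromosome 6 against the distance of their start from that of C3ar1 (Mb). Top, APP-KI;C3aRKO against APP-KI, bottom, C3aRKO against WT; coloured points are genes whose libraries do not overlap between genotypes and the shaded band is 10 Mb to either side. In the band, 11 genes other than C3ar1 are coloured in the top panel.

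Of the 20 genes named for the lowest p among genes without overlap, 10 in each direction and each with a mean of 5 or more, 6 lay within 10 Mb of C3ar1. They were C3ar1, Mical3, Erc1, Foxj2, Foxm1 and Clec1a. Foxj2, a forkhead transcription factor and the nearest tested gene on one side, starts 0.04 Mb from C3ar1. Its scaled values were 134, 121 and 125 in APP-KI and 174, 156, 147, 136 and 137 in APP-KI;C3aRKO, every knockout library above every APP-KI library by a small margin. The log2 fold change was 0.28 (0.00 to 0.55). Necap1, an endocytic adaptor-binding protein and the nearest tested gene on the other side, overlapped between the genotypes (0.24, -0.14 to 0.63).

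Mical3, an enzyme that oxidizes actin, starts 1.73 Mb from C3ar1 (chromosome 6, 120931707 to 121130999, minus strand). It read 161, 106 and 72.1 in APP-KI and 41.6, 70.5, 54.6, 55.0 and 45.8 in APP-KI;C3aRKO. All knockout libraries were lower, the nearest pair being 70.5 and 72.1. The log2 fold change was -0.92 (-1.49 to -0.35) in 8 libraries and -0.52 (-0.73 to -0.30) in 6. In the libraries without the knockin it read 193, 143 and 144 in WT and 78.8, 106 and 78.6 in C3aRKO, again without overlap and with a log2 fold change of -0.97 (-1.48 to -0.45).

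Erc1, a scaffold protein of vesicle docking sites, starts 3.01 Mb away on the same side and moved the other way. Its values were 23.2, 22.6 and 22.4 in APP-KI, a very narrow range, and 69.7, 26.5, 28.6, 30.2 and 30.9 in APP-KI;C3aRKO. Replicate 1, one of the 2 libraries with few genes detected, held the 69.7. The log2 fold change was 0.68 (-0.01 to 1.37), and 0.33 (0.14 to 0.52) without the 2 libraries. Between WT (8.08, 8.68 and 8.65) and C3aRKO (21.9, 17.8 and 19.3) the groups lay farther apart, at 1.06 (0.37 to 1.75).

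Foxm1, a forkhead transcription factor of dividing cells, starts 5.51 Mb from C3ar1 on the other side. It read 0.65, 12.4 and 11.2 in APP-KI and 35.4, 18.1, 17.1, 16.6 and 17.2 in APP-KI;C3aRKO, higher in each knockout library. The extreme values, 0.65 and 35.4, were those of the 2 libraries with few genes detected, and without them the log2 fold change was 0.54 (0.34 to 0.73) instead of 1.66 (0.08 to 3.23). WT and C3aRKO libraries did not overlap either, at 12.8 to 16.0 against 17.4 to 18.0, although the fitted interval of that difference (-0.98 to 1.70) contained 0.

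Clec1a, a C-type lectin-like receptor gene, starts 6.60 Mb away (129424772 to 129452000, minus strand). The scaled values were 16.3, 21.8 and 22.5 in APP-KI and 0, 7.37, 5.35, 8.43 and 6.79 in APP-KI;C3aRKO. The knockout libraries reached at most 8.43, below the lowest APP-KI library. The 0 was that of replicate 1, which had few genes detected. In the 6 libraries the log2 fold change was -1.54 (-1.91 to -1.16, adjusted p = 0.0968 from limma), and in 8 it was -2.27 (-3.77 to -0.77). WT held 2.53, 2.89 and 3.48 and C3aRKO 0, 0 and 2.45, so levels were low there and still did not overlap. The nearest pair was 2.45 and 2.53, and C3aRKO replicates 1 and 2 had reads on only 12701 and 13055 genes. Clec9a, a dendritic cell receptor gene that ends beside Clec1a on the opposite strand, was also lower in APP-KI;C3aRKO (3.29, 6.2 and 3.61 against 0, 2.45, 1.01, 0.81 and 0.97). Whether reads were counted by strand is not given in the sources used here, so reads at the adjoining ends of the 2 genes may not be separable.

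The Klrb1 genes, which encode C-type lectin receptors known from natural killer cells, lie 5.77 to 5.97 Mb from C3ar1 and were low. They are close copies of each other, so the division of reads among them is uncertain. Klrb1c was at 2.13, 3.54 and 2.37 in APP-KI and between 0.071 and 0.20 in APP-KI;C3aRKO, without overlap. In Klrb1b the APP-KI values were 0.11, 7.48 and 7.07 and the knockout values 0.023, 1.44, 0.64, 1.12 and 1.19. Klrb1a ran the opposite way, with 0.25, 2.32 and 1.61 in APP-KI and 0, 7.06, 6.15, 7.71 and 8.16 in APP-KI;C3aRKO. Within the 6 libraries Klrb1b had a log2 fold change of -1.94 (-2.48 to -1.41) and Klrb1a 1.51 (1.11 to 1.92), both with adjusted p = 0.0971 (limma), so neither passed. The Klrb1 genes and Clec9a were named after their values had been seen, as were the 4 genes that end the next paragraph.

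Counted together, 9 of the 11 genes within 10 Mb that did not overlap could also be tested between C3aRKO and WT. Of these, 6 lay on the same side of 0 there, and 4 (Mical3, Erc1, Foxm1 and Clec1a) did not overlap in the same direction, where 9.16% of all genes were higher and 9.31% lower without overlap. C3aRKO and WT libraries also differed in genes detected, as given above. The remaining members of the 11 were Prrt3, Csgalnact2, Clstn3 and Nop2, with log2 fold changes between -1.49 and 0.23.

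**Figure D4:**
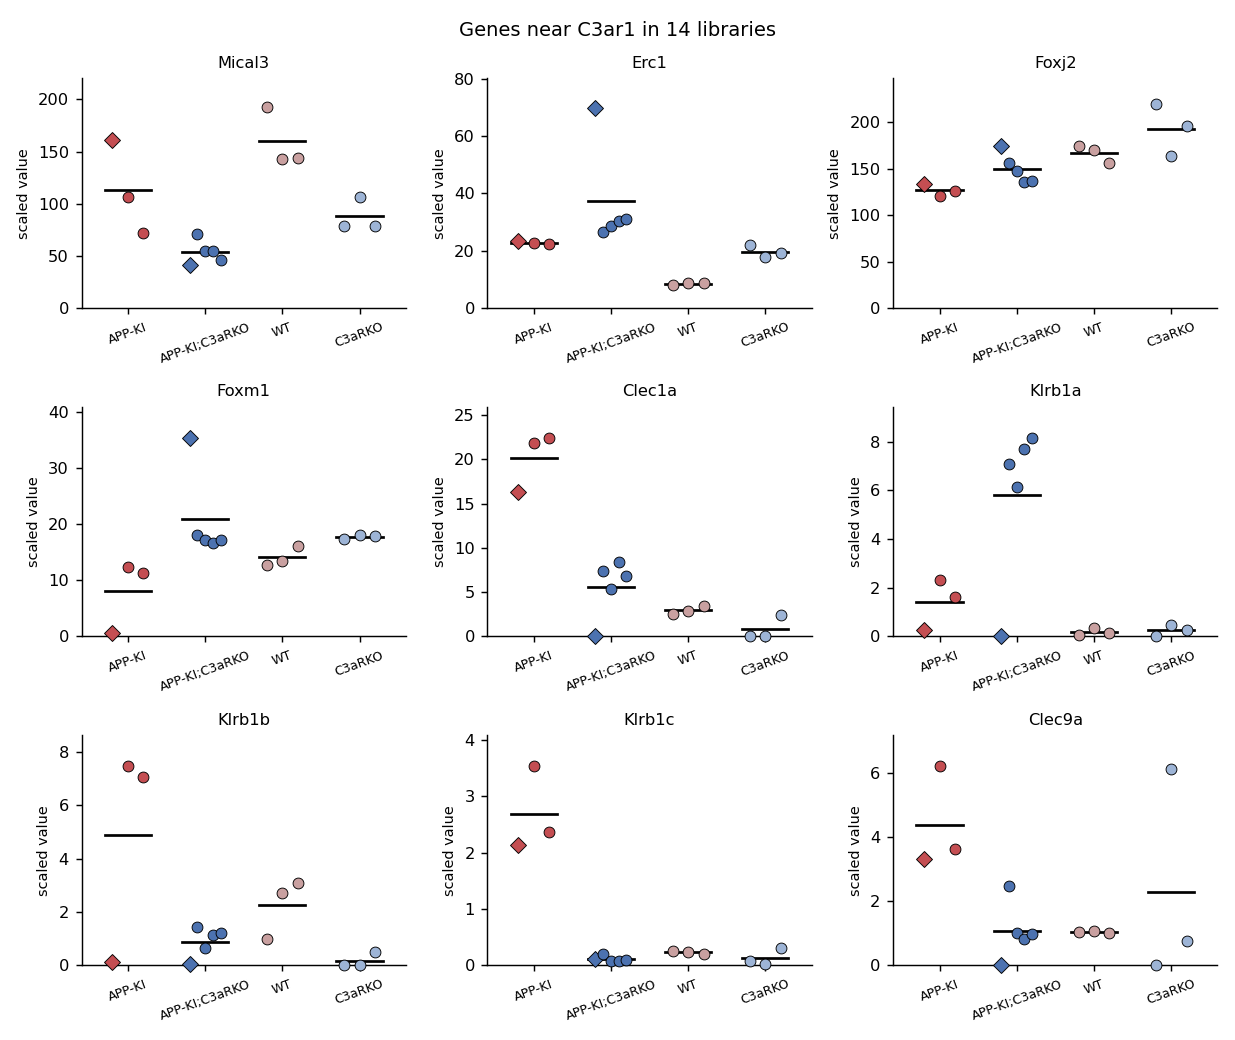
Scaled values of 9 genes within 10 Mb of C3ar1 in 14 libraries, by genotype. Points are libraries and lines are means. Diamonds mark APP-KI replicate 4 and APP-KI;C3aRKO replicate 1. C3aRKO replicates 1 and 2, with reads on 12701 and 13055 genes, are not marked. Mical3 and Clec1a lie lower and Erc1 and Foxm1 higher in both C3ar1-deficient genotypes, without overlap with their controls.

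Farther than 20 Mb from C3ar1 or on other chromosomes, the named higher genes differed by small amounts. Sox4, a transcription factor of progenitor and immune cells, read 78.9, 95.1 and 98.1 in APP-KI and 128, 139, 117, 119 and 110 in APP-KI;C3aRKO. Its log2 fold change was 0.45 (0.14 to 0.77), and 0.36 (0.16 to 0.56) in the 6 libraries, with adjusted p = 0.880 (limma) in the latter. Without the knockin the genotypes overlapped, at -0.16 (-0.46 to 0.15). Entpd1, which encodes the ATP-degrading surface enzyme CD39 of microglia, read 450, 560 and 566 against 571, 637, 808, 664 and 815. The log2 fold change was 0.33 in both sets of libraries (-0.02 to 0.68 in 8 and 0.06 to 0.60 in 6). The other higher genes were Smo, the signal transducer of the Hedgehog pathway, on chromosome 6 (0.43), Akap1, a mitochondrial anchor of protein kinase A (0.36), Ubap1, a subunit of the sorting complex ESCRT-I (0.40), Zc3h15 (0.42) and Sap30bp (0.52). None passed the adjusted test.

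Lower genes outside that distance were Bsn, a presynaptic scaffold (-0.56), Trim68, a ubiquitin ligase (-0.93), Uaca (-0.75), Efcab2, Smyd5, also on chromosome 6 (-0.47), Smtn, a cytoskeletal protein of smooth muscle (-1.36), and Ell2, a transcription elongation factor (-0.50). In APP-KI;C3aRKO replicate 1 Smtn was at 0, and APP-KI replicate 4 was the highest library for Bsn, Trim68, Uaca, Efcab2 and Smyd5. Without these 2 libraries the same genes were between -0.54 and -0.18. S1pr1, the receptor for sphingosine 1-phosphate, was named after its values were seen. In the 6 libraries it was at 96.8 and 72 in APP-KI and at 144, 142, 134 and 144 in APP-KI;C3aRKO, a log2 fold change of 0.80 (0.57 to 1.02, adjusted p = 0.0971 from limma). APP-KI replicate 4 (89.2) and APP-KI;C3aRKO replicate 1 (60.0) went against that order.

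The hypoxia genes of the study, chosen by its authors from C3aR+ libraries, gave no called gene. Of 25 tested members 0 passed in either direction, against a background of 0%, and the median log2 fold change was -0.02, where that of all genes was also -0.02. It was 0.06 in the 6 libraries, with 17 of 25 above 0, and -0.01 over all genes, with 5952 of 12532 above 0. Hif1a itself read 463, 585 and 870 in APP-KI and 447, 620, 1010, 849 and 1193 in APP-KI;C3aRKO. The genotypes overlapped, the 3 knockout libraries of the second series being among the 4 highest, and the log2 fold change was 0.10 (-0.33 to 0.53). Slc2a1, the glucose transporter GLUT1, reached a lower bound at 0, with 97.3, 117 and 143 against 127, 125, 185, 169 and 189 and a log2 fold change of 0.28 (0.00 to 0.56). Its groups overlapped. Ndrg1, a stress-response gene, read 4.47, 11.8 and 6.22 against 17.9, 4.16, 6.06, 5.58 and 4.46. Vegfa, the vascular growth factor, read 114, 26.8 and 32.0 against 59.0, 40.1, 40.6, 34.5 and 15.4. In the 6 libraries 24 of the 25 genes had an interval inside a doubling or halving, the exception being Ndrg1 (-0.63, -1.20 to -0.07). Ndrg1 was lower there without overlap, the nearest pair being 6.06 and 6.22, and the 11.8 was that of APP-KI replicate 5. It was the 1 member of the list lower without overlap, beside 526 of 12532 genes in all. The other HIF machinery and glycolysis genes (27 tested) had a median of 0.02 and the oxidative phosphorylation genes (32 tested) a median of -0.00, with 0 called in each.

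The lipid metabolism genes of the study (14 tested, 0 called) had a median of -0.07 in the 8 libraries and 0.02 in the 6. Apoe, the main lipid carrier made by plaque-associated microglia, read 13145, 14237 and 28249 in APP-KI and 9466, 14608, 27747, 26761 and 30618 in APP-KI;C3aRKO. Its 2 lowest values were the 2 libraries with few genes detected, and the log2 fold change was -0.12 (-1.46 to 1.21), or 0.02 (-0.50 to 0.53) in the 6 libraries. Plin2, the coat protein of lipid droplets, read 111, 41.7 and 88.8 against 59.2, 45.7, 90.5, 88.3 and 76.7. It overlapped throughout, at 0.01 (-0.20 to 0.23) in the 6 libraries. Fabp3, a fatty acid-binding protein, showed how 1 library can set a value, since it read 0 in APP-KI;C3aRKO replicate 1 and between 8.92 and 21.4 in the other 7. Its log2 fold change was -1.28 with that library and -0.02 in the 6 libraries. The longer lists of glycerolipid and lipid droplet genes (30 tested) and of cholesterol synthesis, uptake and efflux (25 tested) had medians of -0.08 and 0.08 with 0 called. Hmgcs1 and Cyp51, enzymes of cholesterol synthesis, had the lowest p among the higher members of the latter, at 0.53 (-0.08 to 1.13) and 0.32 (-0.07 to 0.71), and Cyp51 did not overlap. In that cholesterol list 2 of 25 genes were higher without overlap, beside 75 of 12663 genes in all. In the 6 libraries 3 were, and 20 of 25 lay above 0, beside 406 and 5952 of 12532 genes in all.

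No reactive or homeostatic microglial gene passed the test. The reactive genes of the study (6 tested, 0 called) had a median of -0.07, and 0.04 in the 6 libraries. Trem2, the lipid-sensing receptor, read 925, 1232 and 1894 in APP-KI and 860, 1351, 1879, 1876 and 1682 in APP-KI;C3aRKO, with a log2 fold change of -0.02 (-0.51 to 0.47). Tyrobp, its signalling adaptor, read 372, 718 and 1303 against 422, 804, 1337, 1342 and 1185. Both genes were lowest in APP-KI replicate 4 and APP-KI;C3aRKO replicate 1, and the genotypes overlapped. Axl, a receptor for dying cells, was at -0.19 (-0.92 to 0.54). A longer list of plaque-associated genes (30 tested, 0 called) had a median of -0.03, and 0.08 in the 6 libraries.

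Homeostatic genes (8 tested, 0 called) had a median of 0.04 in 8 libraries and 0.14 in 6, where all 8 were above 0 and 3 were higher without overlap, beside 5952 and 406 of 12532 genes in all. P2ry12, the ADP receptor of surveying microglia, read 425, 1015 and 1086 in APP-KI and 485, 1229, 1189, 1100 and 1388 in APP-KI;C3aRKO. Leaving out APP-KI replicate 4 and APP-KI;C3aRKO replicate 1, all 4 knockout libraries exceeded both APP-KI libraries, and the log2 fold change was 0.21 (-0.06 to 0.48). Cx3cr1, the fractalkine receptor, read 1913, 4150 and 4566 against 1692, 4849, 4858, 4670 and 5537, with the same separation in the 6 libraries, where it was at 0.17 (-0.16 to 0.50). Tmem119, a membrane protein particular to microglia in the brain, overlapped there, with 345, 648 and 953 against 180, 965, 893, 744 and 761. The list of microglial identity genes (24 tested, 0 called) had a median of 0.07, and 0.11 in the 6 libraries with 22 of 24 above 0.

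**Figure D5:**
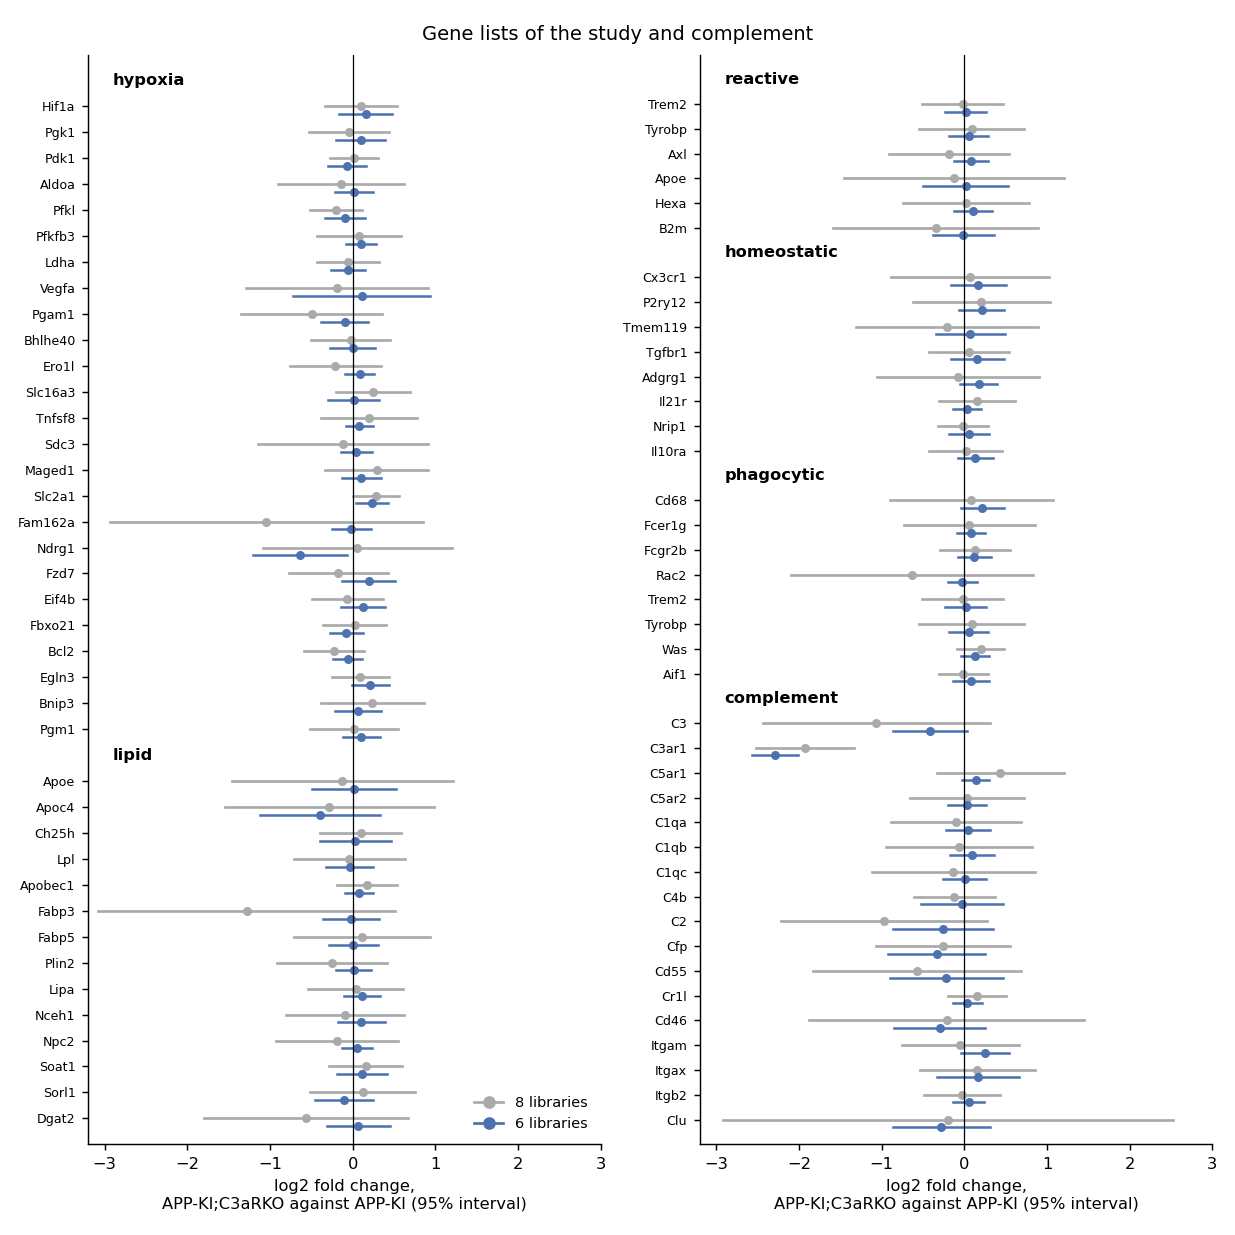
log2 fold change of APP-KI;C3aRKO against APP-KI with its 95% interval (limma) for the tested members of 6 lists that are reported here. Grey, all 8 libraries, blue, the 6 libraries left without APP-KI replicate 4 and APP-KI;C3aRKO replicate 1. C3ar1 lies apart at -1.93 and -2.29, and nearly every other blue interval spans 0.

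Phagocytic genes measured by the study with qPCR primers (8 tested, 0 called) had a median of 0.07, and 0.08 in the 6 libraries. Cd68, a lysosomal glycoprotein of phagocytes, read 403, 966 and 1254 in APP-KI and 340, 1250, 1426, 1239 and 1413 in APP-KI;C3aRKO. The groups overlapped, at 0.08 (-0.90 to 1.07) and, in the 6 libraries, 0.22 (-0.04 to 0.47). Fcgr2b, an inhibitory IgG receptor, was at 0.13 (-0.29 to 0.55) and Fcer1g, the adaptor of activating Fc receptors, at 0.06 (-0.73 to 0.85). Rac2, a GTPase of phagocytic cup formation, fell to 10.2 in APP-KI;C3aRKO replicate 1 alone, with 49.5, 109 and 96.9 in APP-KI and 97.3 to 104 in the other knockout libraries. Cd36, a scavenger receptor, read 2.68, 13.3 and 11.5 against 0.50, 12.7, 12.8, 17.9 and 12.9. The lists of uptake receptors (21 tested), receptor recycling (23) and lysosome genes (22) had medians of 0.02, 0.04 and -0.01, each with 0 called. In the 6 libraries their medians were 0.08, 0.06 and 0.09, again with 0 called. There 19 of 21, 18 of 23 and 20 of 22 lay above 0, beside 5952 of 12532 genes in all.

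Complement genes other than C3ar1 did not separate the genotypes. Of 24 listed, 18 were tested (C3ar1 included), 13 lay below 0 and 5 above, and the median was -0.11, or 0.02 in the 6 libraries. C1qa, a chain of the C1q initiator of the classical pathway, read 1482, 2572 and 3678 in APP-KI and 1074, 2637, 3768, 3802 and 3828 in APP-KI;C3aRKO. The other chains, C1qb and C1qc, were at -0.07 (-0.95 to 0.82) and -0.13 (-1.12 to 0.85). C3, the precursor of the C3aR ligand, read 43.2, 64.3 and 89.8 against 5.79, 52.2, 64.8, 47.8 and 83.4, and its log2 fold change of -1.07 (-2.44 to 0.30) was -0.41 (-0.86 to 0.04) in the 6 libraries. C5ar1, the receptor for C5a, read 15.5, 46.5 and 54.9 against 36.5, 53.0, 60.3, 56.0 and 61.2. It was at 0.44 (-0.33 to 1.20), and at 0.14 (-0.03 to 0.30) in the 6 libraries. C5ar2, the second C5a receptor, was at 0.03 (-0.66 to 0.72). Among the regulators, Cr1l, the Crry gene, was at 0.15 (-0.20 to 0.50). The integrins of complement receptor 3 and 4, Itgam and Itgax, were at -0.05 (-0.75 to 0.66) and 0.16 (-0.54 to 0.85).

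Interferon-response genes (27 tested, 0 called) had a median of -0.11. In the 6 libraries 25 of 27 lay below 0 with a median of -0.16, beside 6580 of 12532 genes in all. The mean log2 value of the list was highest in APP-KI replicate 5 (4.10), followed by APP-KI;C3aRKO replicate 4 (4.08). In the second series alone, which has 1 APP-KI library, 19 of 27 lay below 0 with a median of -0.05. Ifi44, an interferon-induced gene, lay above 0, and its values went with library series as well as genotype. It read 0, 6.70 and 1.91 in APP-KI and 13.4, 2.41, 54.4, 39.3 and 39.9 in APP-KI;C3aRKO, so the 3 knockout libraries of the second series were far above all others. Its neighbour Ifi44l had the same pattern, at 0, 1.42 and 0.018 against 0, 0.014, 11.8, 9.18 and 8.78. In the second series alone limma called 2 genes higher (0.0167% of 11949), these 2, and 1 lower (0.00837%), C3ar1. Ifi44 was then at 3.95 (3.47 to 4.44, adjusted p = 0.00731 from limma). That series has 1 APP-KI library, so the spread behind these calls comes from the 3 knockout libraries, and the lone library is assumed to vary as they do. Rsad2 and Xaf1, further interferon-induced genes, were at -1.30 (-2.95 to 0.34) and -0.59 (-1.23 to 0.04).

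Antigen presentation genes (21 tested, 0 called) had a median of -0.20 in the 8 libraries and -0.01 in the 6. B2m, the light chain of MHC class I, read 733, 1952 and 2030 in APP-KI and 322, 1629, 2000, 2133 and 2687 in APP-KI;C3aRKO. Inflammation genes (27 tested, 0 called) had a median of 0.03. Genes raised by warm tissue dissociation (23 tested, 0 called) had a median of 0.09. In the 6 libraries it was 0.21 with 22 of 23 above 0, beside 5952 of 12532 genes in all. Fos, an immediate early gene of that list, read 454, 200 and 257 against 478, 349, 376, 454 and 196. Ribosomal protein genes (80 tested, 0 called) had a median of -0.20 in 8 libraries and -0.06 in 6.

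Genes that the knockin itself raised were taken from the C3aR+ libraries, where limma called 1602 genes higher (13% of 12312) and 1196 lower (9.71%) in C3aR+ APP-KI than in C3aR+ WT. None of those libraries enters the comparison here. With C3ar1 lost, the 1602 raised genes had a median log2 fold change of -0.03 and 0 were called, with 863 below 0 and 739 above. In the 6 libraries the median was 0.02, and 1551 of the 1602 had an interval inside a doubling or halving. The 1196 lowered genes had medians of 0.02 in 8 libraries and 0.03 in 6. By library, the mean log2 value of the raised genes was 5.47, 5.83 and 5.94 in APP-KI and 5.18, 5.76, 5.96, 5.96 and 5.99 in APP-KI;C3aRKO. The lowest library of each genotype was again the one with fewest genes detected, and the remaining 6 lay within 5.76 to 5.99.

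Markers of other brain cell types were read in each library. The summed scaled value of 10 neuronal markers was 3.37 to 46.9 in APP-KI and 3.08 to 14.6 in APP-KI;C3aRKO. For 8 endothelial markers it was 233 to 291 against 113 to 297, for 8 astrocyte markers 213 to 347 against 219 to 346, and for 10 oligodendrocyte markers 179 to 240 against 107 to 231. Border macrophage markers (8) summed to 271 to 291 against 202 to 364, monocyte and neutrophil markers (8) to 29.7 to 232 against 64.5 to 278, and lymphocyte markers (8) to 1.66 to 66.4 against 1.62 to 36.9. None of these ranges was disjoint. In APP-KI replicate 4, 7 of the 10 neuronal, 3 of the 8 monocyte and neutrophil and 4 of the 8 lymphocyte markers were at 0. In APP-KI;C3aRKO replicate 1, 6, 2 and 4 of them were. Median log2 fold changes were -0.51 for neuronal (3 tested), -0.96 for endothelial (8) and -0.33 for oligodendrocyte markers (7). Every one of these marker lists had a median below 0 in the 6 libraries, at -0.64 for monocyte and neutrophil (8 of 8 tested below 0), -0.59 for neuronal (6 of 6), -0.37 for oligodendrocyte (6 of 8), -0.31 for endothelial (6 of 8), -0.22 for lymphocyte (5 of 5), -0.17 for border macrophage (6 of 8) and -0.13 for astrocyte markers (7 of 8). The homeostatic and identity lists lay above 0 in the same libraries, where 6580 of 12532 genes in all lay below 0. The highest APP-KI sums of neuronal, lymphocyte, astrocyte and oligodendrocyte markers were those of replicate 5, and of the other lists replicate 4 or 6. In the second series alone (1 APP-KI library), medians were 0.01 for neuronal (1 tested), 0.02 for astrocyte and -0.01 for oligodendrocyte markers. They were 0.04 for border macrophage, -0.07 for endothelial and -0.98 for monocyte and neutrophil markers. The part of such cells in the results was not tested.

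Whether C3ar1 loss acted differently with and without the knockin was tested in the 14 libraries. limma called 0 of 12407 genes in either direction (111 higher and 92 lower before adjustment, p under 0.05), and edgeR also called 0 (146 and 73). The 95% interval of this difference reached 1.00 to either side for the median gene, and 32.1% of genes had an interval inside a doubling or halving.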

How the data were processed

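RNA of sorted mouse microglia was sequenced by the authors (Takara SMARTer Pico v3 libraries, NovaSeq), aligned to mm10 with TopHat and counted; the submitters' processing notes also name cutadapt, featureCounts and DESeq2. How UMIs and strand were handled is not given in the sources used here. The deposited values are named FPKM, but each is a signal, the gene's read count over the upper quartile (percentile 75) of that library, with no length term; all of the values were whole reads within 0.02 read. They were multiplied by 35.2. Symbols with more than 1 entry (10) were summed, leaving 21315 genes, of which 20968 were placed with GENCODE M21 (GRCm38).

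Genes averaging 1 or more across the 8 libraries were fitted on log2(value + 1), which understates changes of low genes, with limma 3.58.1 in R 4.3.3 (mean-variance trend, terms for genotype and library series, Benjamini-Hochberg adjustment). The library series is read from the first digits of the library number. The first held APP-KI replicates 4 and 5 and APP-KI;C3aRKO replicates 1 and 2, the second the remaining 4. edgeR 4.0.16 and DESeq2 1.42.0 on recovered reads were alternatives. The limma fit was also run on simulated counts with planted changes, and the outcome is not given here. Symbols were used as deposited, except that Gpr56 was matched to Adgrg1 and the hypoxia gene Pgm2 to Pgm1, whose Ensembl identifier the study gives. Clec7a, Xist, Mx1 and Trbc2 were not analysed here, and 1 gene is not reported here.

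Genes named were C3ar1, members of the hypoxia, lipid, reactive, homeostatic, phagocytic and complement lists, any gene past the adjusted p-value, the 10 genes in each direction with the lowest p among those at a mean of at least 5 whose groups do not overlap, 2 members a direction of each further list, and the neighbours of C3ar1. The printed genes were picked among these by their values. The comparison, members and lists were chosen with earlier results of these data known. Other steps ran in Python 3.11.15 with scipy 1.17.1, pandas 2.3.3 and numpy 2.4.6.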

Additional observations from a re-analysis of the deposited data

Results flagged for a closer look

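Within the 5 APP-KI;C3aRKO libraries, replicate 2 lay apart in olfactory receptor genes with a read (429 of 1100). Replicate 1 lay apart, and lowest, in the mean log2 value of the complement genes (5.47), the homeostatic genes (8.72), the phagocytic genes (7.48) and the genes raised in APP-KI (5.18). It did so in further lists too, among them the uptake receptors (6.94) and the microglial markers (9.48). Each is a library whose gap to the nearest of the others is over 0.71 of the range of the group. Among 191 named genes tested, replicate 1 was apart in this way for 59 and replicate 2 for 4. Chance flags about 1 in 20 groups.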

How the results depend on the processing

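Counts of called genes moved under the following settings. The fit of 14 libraries called 1 lower gene and gave C3ar1 -1.95, and DESeq2 called 159 lower genes and gave C3ar1 -2.01. Removal of the 2 libraries with fewest genes called 1 lower gene and gave C3ar1 -2.29. The second series alone called 2 higher and 1 lower (C3ar1 -2.48), and the first series alone 2 higher and 1 lower (the Y-linked Eif2s3y and Uty higher). Without 1 library each, lower calls ran from 0 to 1 and C3ar1 from -2.25 to -1.52. The call without APP-KI replicate 4 was C3ar1.

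Genes that did not overlap were 224 lower with no filter, 70 at a mean of at least 5, 64 with quantile normalization and 236 among those DESeq2 tested. They were 406 higher and 549 lower without the 2 libraries with fewest genes, and 383 higher and 468 lower without the 2 with the most olfactory receptor genes read. Without 1 library each they ran from 99 to 568 higher and from 174 to 1028 lower. Groups of fewer libraries overlap less by construction. The share within 10 Mb of C3ar1 was 14.3% without the 2 libraries with fewest genes and ran from 6.43% to 18.3% without 1 library each. Elsewhere the share was 7.30% without those 2 libraries and ran from 2.06% to 12.4% without 1 library each, and without APP-KI replicate 6 the shares were 18.3% and 12.4%. In the second series alone (1 APP-KI library) 2496 genes were higher and 2507 lower without overlap, 46.9% of genes in the window and 41.8% elsewhere, and in the first (2 libraries a group) 1127 and 1666, 24.9% and 20.9%. Quantile normalization turned the split of 75 higher and 132 lower to 110 and 64. The genes lowered in the C3aR+ libraries had a median of -0.14 when the list was limited to a log2 fold change of at least 1. At that limit the raised genes had a median of -0.09, with 618 of 1000 below 0, beside 6748 of 12663 genes in all. In the 6 libraries their median was -0.02, with 551 of 1000 below 0, beside 6580 of 12532.

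Replicate numbers 4 and 5 occur in both genotypes, but nothing says that they mark a pair, and the deviations of same-numbered libraries correlated at -0.29 and 0.01. A fit with the replicate block called 298 higher and 149 lower genes, with C3ar1 at -1.72 and list medians of 0.35 (hypoxia), 0.63 (lipid), 1.03 (reactive), 0.76 (phagocytic), 0.36 (raised in APP-KI) and -0.18 (lowered in APP-KI). It rests on 1 residual degree of freedom. Under it Aldoa (1.17), Lgals3bp (1.47), Nceh1 (1.11) and Sdc3 (1.21) were called on the other side of 0.

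Array weights, planned as an alternative, could not be estimated and were not run. The other settings (pseudocount 0.1, median ratio scaling, no trend, no series term, edgeR, an adjusted p under 0.1) left the calls in the 8 libraries as they were. In the 6 libraries an adjusted p under 0.1 (limma) would also take in Clec1a, Klrb1a, Klrb1b and S1pr1. Without the 2 libraries with the most olfactory receptor genes read, the lowest adjusted p was 0.0991 (limma). The interaction had 0 calls in each of its settings. The cause of these changes was not tested. Uncalled named-gene values changed sign in 405 of 4314 cases. Of the 3 APP-KI libraries 1 had few genes and 1 had reads on nearly every olfactory receptor gene.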
